A study of Mus musculus with 12 samples.

Results

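Interleukins and their receptors were followed in 12 mouse breast tumours. The genes were taken by name and type from the deposited count table, as every protein-coding gene whose symbol starts with Il followed directly by a digit. This gave 84 of 55487 genes, with 82 distinct symbols because Il11ra2 has 3 gene identifiers. Of these 84, 79 had at least 1 count and 52 passed the filter on low counts and were tested. Levels are in CPM, counts scaled to a common library size. All animals were C57BL/6J mice with MMTV-PyMT, a transgene of the middle T oncogene of polyomavirus under a promoter active in breast epithelial cells, so the oncogene is shared by both groups. The 6 Bad3SA tumours came from mice with the Bad 3SA genotype, a form of the pro-apoptotic protein BAD whose regulatory serines are replaced, at end-point ages of 22.857 to 31.143 weeks. The 6 Bad_WT tumours carried wild-type Bad and were taken at 21.286 to 27.143 weeks. Every library of a group has its own end-point age, so no mouse gave more than 1 library of it. The comparison is between tumours with the Bad 3SA genotype and tumours with wild-type Bad. BAD of the 3SA form cannot be phosphorylated at these serines. The labels do not say whether the Bad3SA mice were homozygous for it.

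Total counts ran from 58096172 to 83296370 per tumour, and 3 counts in a library corresponded to 0.0346 to 0.0545 CPM. The luminal epithelial markers of the labelled tissue were present in every tumour, Epcam at 795 to 1425 CPM in Bad3SA and 1049 to 1516 CPM in Bad_WT. Over the 52 tested genes, Bad_WT 6 held the lowest Bad_WT value for 33 and Bad_WT 4 the highest for 21. In Bad3SA, tumour 6 held the lowest value for 20 and tumour 2 the highest for 18. In whole-tumour RNA, fewer cells of a type and less RNA per cell cannot be told apart.

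Interleukins are secreted proteins by which leukocytes, epithelium and stroma signal to each other. Each binds a receptor of a ligand-specific chain and, usually, a chain shared by several cytokines. The common gamma chain serves the interleukin-2 family, gp130 the interleukin-6 family and the interleukin-1 receptor accessory protein much of the interleukin-1 family. Receptors of the interleukin-1 family signal through MYD88, those of the interleukin-17 family through ACT1, and most of the others through JAK kinases and STAT factors. Mammary tumours contain epithelium, fibroblasts, macrophages and lymphocytes, each of which can make or receive such signals.

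Among the genes described below, the interleukin-36 ligands and their receptor had their highest values in the same 4 tumours, so the 250 bases before their annotated starts are shown. Il1f8 and Il1f9 encode the beta and gamma forms of interleukin-36, and Il1rl2 encodes the receptor chain. No sequence was available here for Il1f6, which encodes the alpha form. The sequences are from RefSeq on GRCm38.p6, plus strand, at chr2:24152922-24153171, chr2:24186226-24186475 and chr1:40324339-40324588 in the order printed. Capitals mark an AP-1 motif, TGANTCA, in Il1f8 and a STAT motif, TTCNNNGAA, in Il1f9.
Il1f8: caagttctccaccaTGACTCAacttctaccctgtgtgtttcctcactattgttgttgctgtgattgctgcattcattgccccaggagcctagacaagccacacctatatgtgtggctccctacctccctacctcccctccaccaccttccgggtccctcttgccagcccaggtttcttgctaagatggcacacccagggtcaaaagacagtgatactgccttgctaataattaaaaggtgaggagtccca
Il1f9: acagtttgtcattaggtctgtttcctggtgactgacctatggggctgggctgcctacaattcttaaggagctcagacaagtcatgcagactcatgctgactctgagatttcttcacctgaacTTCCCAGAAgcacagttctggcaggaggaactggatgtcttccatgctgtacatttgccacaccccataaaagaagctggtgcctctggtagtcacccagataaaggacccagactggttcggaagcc
Il1rl2: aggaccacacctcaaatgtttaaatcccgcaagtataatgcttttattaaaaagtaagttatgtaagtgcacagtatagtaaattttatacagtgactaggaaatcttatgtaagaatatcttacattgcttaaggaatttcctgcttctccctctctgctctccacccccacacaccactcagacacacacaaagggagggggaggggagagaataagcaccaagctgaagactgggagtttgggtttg
The AP-1 motif lay 236 to 230 bases before the start of Il1f8, and the STAT motif 128 to 120 bases before that of Il1f9. Both strands were searched, and neither motif nor an interferon-response core (TTTC, 2 bases of any kind, TTTC) was present in the Il1rl2 window. Of 32851 windows of 250 bases before RefSeq starts, 6.75% held the AP-1 motif, 7.02% the STAT motif and 2.98% the interferon-response core. RefSeq windows were matched for 65 of the 82 symbols, 80 windows in all, of which 14 held the AP-1 motif, 8 the STAT motif and 2 the interferon-response core. Such matches describe the letters and are not binding sites.

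Per kilobase of exon, the median level over the 12 tumours was 0.698 CPM for 44 receptor chains and binding proteins and 0.186 CPM for 39 ligands and secreted antagonists. The filter on low counts was passed by 33 of the receptor genes and 19 of the ligand genes. Il13ra1, a chain of the receptor for interleukins 4 and 13, was at 20.9 ± 5.30 CPM per kilobase in Bad3SA and 24.2 ± 4.28 in Bad_WT (SD, n = 6 each, as for every mean ± SD below). Il17re, a receptor for epithelial interleukin-17C, was at 20.0 ± 5.27 and 17.2 ± 2.37 CPM per kilobase in Bad3SA and Bad_WT. These genes and the next in order, Il17rc, Il20rb, Il33, Il17b and Il11ra1, had overlapping ranges over tumours, so their order is not firm.

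Among the ligands of the 2 receptor genes at the top, Il17c and Il13 had few counts. Il17c, the ligand of the Il17re product, had 16 counts over the 6 Bad3SA tumours and 26 over the 6 Bad_WT tumours. Il13 had 6 counts in Bad3SA and 2 in Bad_WT, and Il4, the other ligand of that receptor, was at 1.52 ± 0.427 CPM in Bad3SA and 1.33 ± 0.229 CPM in Bad_WT. Il9, Il21 and Il22, ligands made by T cells and innate lymphocytes, had 0 counts in all 12 libraries. The Il22 transcript is 97.3% identical to Iltifb, so its reads could have been given to that gene or left out. Il3 and Il17a had 3 and 2 counts in all. The ligand genes with the highest levels per kilobase were Il33, a nuclear alarmin of epithelium and stroma, and Il17b. Il17b was at 14.4 ± 3.49 CPM in Bad3SA and 14.3 ± 5.05 CPM in Bad_WT. The plot of levels by gene shows this order.

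**Figure D1:**
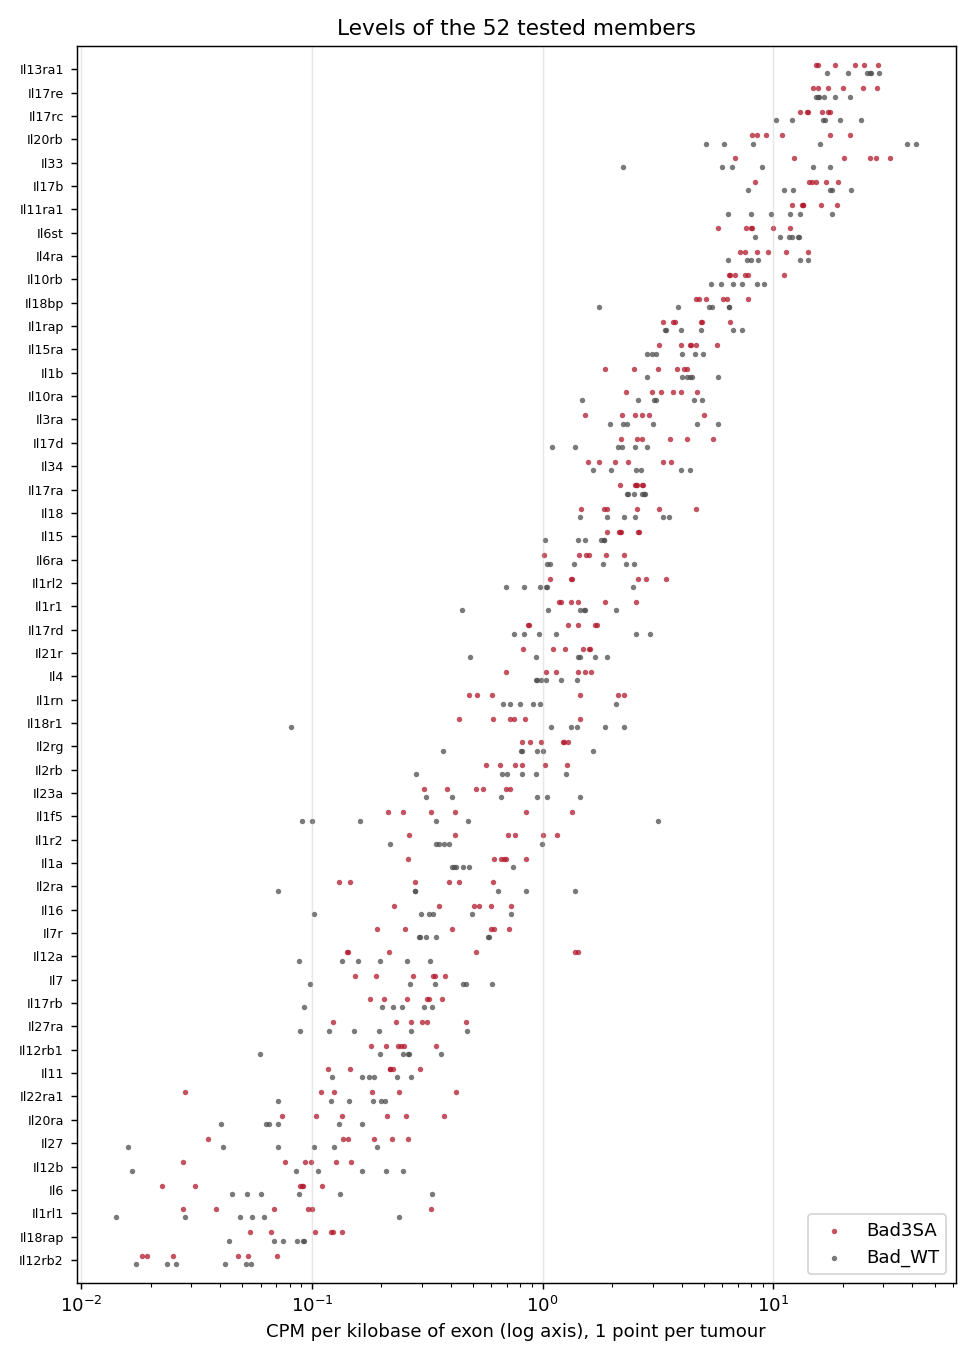
Level of each of the 52 tested interleukin and receptor genes in CPM per kilobase of exon on a log axis, with 1 point per tumour (red, Bad3SA, above; grey, Bad_WT, below). Il13ra1 and Il17re are at the top, and the points of the 2 genotypes overlap for every gene except Il15.

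No interleukin or receptor gene passed the test between the genotypes. With edgeR's quasi-likelihood test over 18019 genes, 0 of the 52 tested genes passed a Benjamini-Hochberg adjusted p of 0.05, where 1.38% of all genes tested did, 0.622% with a positive and 0.76% with a negative log2 fold change of Bad3SA over Bad_WT. The smallest edgeR adjusted p among them was 0.198, for Il15. At an unadjusted p under 0.05 there were 7, namely Il15, Il12a, Il17d, Il33, Il20ra and Il1rl2 with positive log2 fold changes and Il6st with a negative one, against 16.2% of all genes tested, 7.18% positive and 9.02% negative. The median log2 fold change was 0.09 over the 52, with 33 positive and 19 negative, and 0.00326 over all genes tested. With end-point age in the model the median over the 52 was -0.0985. Of the 69 genes of the group with an adjusted p in the authors' deposited table, 0 passed 0.05, against 4.02% of all genes with one. DESeq2 run here called 0 of 69, where it called 998 of 23710 genes with an adjusted p. Limma voom with quality weights called 1 of the 52, Il33, where it called 579 of 18019 genes. The plot of fold changes by family gives every estimate with its standard error.

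**Figure D2:**
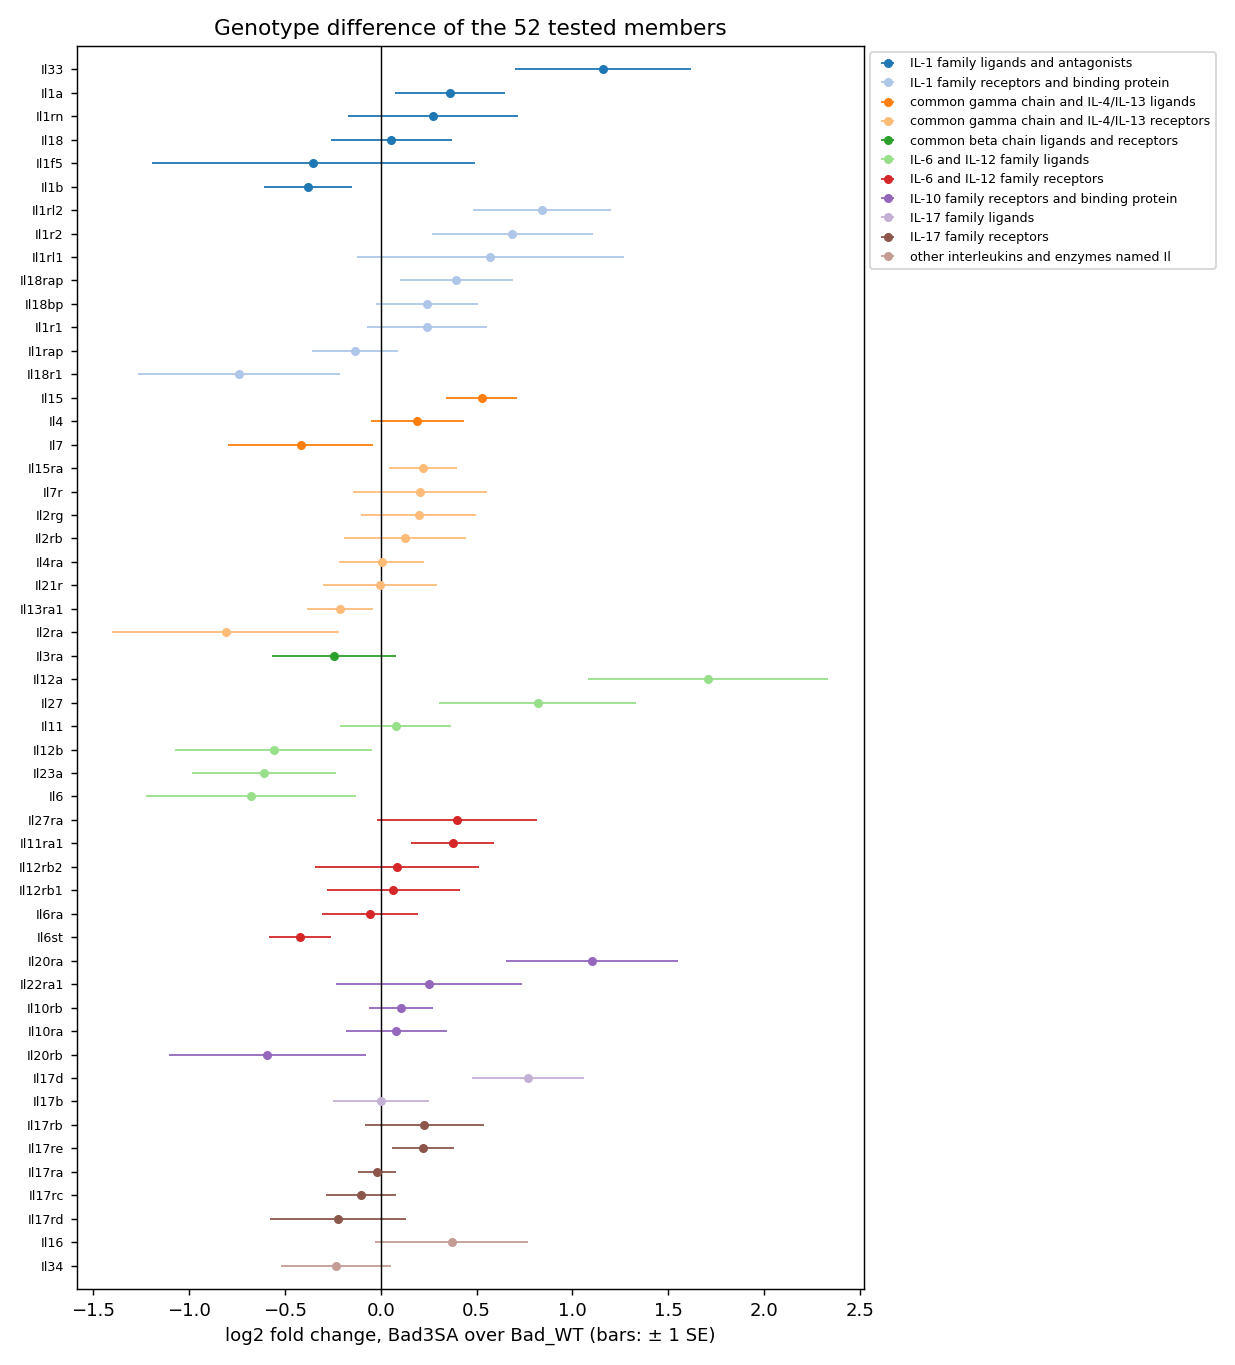
Log2 fold change of Bad3SA over Bad_WT for the 52 tested genes, coloured by family, with bars of 1 standard error from edgeR. Estimates run from -0.81 for Il2ra to 1.71 for Il12a, and none passed at an adjusted p of 0.05.

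The interleukin-1 family holds alarmins released from damaged or stressed cells, their receptors and several decoys. Of its 10 ligand and antagonist genes 6 were tested, and of its 10 receptor and binding protein genes 8 were, with medians of 0.16 and 0.32 on the log2 scale and 0 called in either. Il33 was at 92.6, 75.4, 80.0, 35.6, 19.7 and 58.2 CPM in Bad3SA 1 to 6, against 19.1, 17.2, 25.7, 42.7, 50.6 and 6.45 CPM in Bad_WT 1 to 6. Bad3SA 1, 2, 3 and 6 lay above every Bad_WT tumour, and Bad3SA 4 and 5 lay within their range. Its log2 fold change was 1.16 (SE 0.46, edgeR adjusted p = 0.245), or 2.23-fold. With limma voom, which down-weights variable libraries, it was 1.48 (SE 0.36, limma adjusted p = 0.0419), and this call was made in 1 of 22 alternatives. Il1rl1, the receptor of interleukin-33, averaged 0.758 ± 0.768 CPM in Bad3SA and 0.512 ± 0.565 CPM in Bad_WT (0.57, SE 0.70). Its highest values were 2.27 CPM in Bad3SA 2 and 1.64 CPM in Bad_WT 4.

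The interleukin-36 ligands, which act on epithelium such as skin, had their highest values in Bad_WT 4 and in Bad3SA 1, 2 and 3. Il1f9 was at 2.07, 1.22, 0.755, 0.439, 0.0907 and 0.0417 CPM in Bad3SA 1 to 6, against 0.0244, 0.0923, 0.0365, 4.29, 0.126 and 0.114 CPM in Bad_WT 1 to 6. Il1f6, the alpha form, was at 1.12, 0.476, 0.242 and 0.125 CPM in Bad3SA 1 to 4 and 2.16 CPM in Bad_WT 4, with at most 0.0278 CPM in the other 7 tumours. Il1f8 was at 0.744, 0.403, 0.211 and 0.188 CPM in Bad3SA 1 to 4 and 1.86 CPM in Bad_WT 4. Both groups therefore contain tumours with high and with low values of these genes, though in Bad_WT only Bad_WT 4 was high. Il1f9, counted in all 12 tumours, had 339 counts in Bad3SA and 317 in Bad_WT, most of the latter in Bad_WT 4. Its median was 0.597 CPM in Bad3SA and 0.103 CPM in Bad_WT. These 3 genes and Il1f10 did not pass the filter on low counts, which asks for expression in 6 tumours. Il1f5, which encodes the interleukin-36 receptor antagonist, was tested, at 0.962 to 6.02 CPM in Bad3SA (median 1.68) and 0.408 to 14.2 CPM in Bad_WT (median 1.14). Its log2 fold change was -0.35 (SE 0.84, edgeR adjusted p = 0.852), and Bad_WT 4 held the highest value.

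Il1rl2 was at 19.0, 23.4, 17.6, 9.06, 9.17 and 7.36 CPM in Bad3SA 1 to 6, against 7.11, 7.02, 5.63, 16.7, 6.65 and 4.72 CPM in Bad_WT 1 to 6. Each Bad3SA tumour was above all Bad_WT tumours except Bad_WT 4, which lay below Bad3SA 1, 2 and 3 alone. The log2 fold change was 0.84 (SE 0.36, edgeR adjusted p = 0.276). With 1 tumour left out in turn it ran from 0.64 to 1.21, with edgeR adjusted p of 0.0825 to 0.425. The highest estimate, 1.21 (SE 0.32), and the smallest adjusted p were those without Bad_WT 4. Il1r2, the decoy receptor for interleukin-1, was at 0.501 to 2.20 CPM in Bad3SA (median 1.40) and 0.415 to 1.89 CPM in Bad_WT (median 0.698), again highest in Bad_WT 4 of its group (0.69, SE 0.42, edgeR adjusted p = 0.424). With 1 tumour left out in turn the Il1r2 estimate ran from 0.50 to 1.10, the highest without Bad_WT 4. The edgeR adjusted p of these fits ran from 0.163 to 0.574. Il1rn, the interleukin-1 receptor antagonist, was at 12.5, 11.7 and 8.06 CPM in Bad3SA 1, 2 and 3 and 2.64 to 3.32 CPM in Bad3SA 4 to 6, against 11.5 CPM in Bad_WT 4 and 3.74 to 5.41 CPM in the other Bad_WT tumours.

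Squamous keratinocyte markers were high in part of the same tumours. All 8 of the markers were found and tested, 4 with a positive and 4 with a negative log2 fold change, and 0 passed. Their summed level was 384, 303, 297, 393, 179 and 257 CPM in Bad3SA 1 to 6, against 128, 95.8, 192, 1274, 204 and 132 CPM in Bad_WT 1 to 6. None of the 8 averaged under 0.1 CPM. Bad_WT 4 was the highest for the sum as for Il1f9, and Bad3SA 4, second for the sum, was lower than Bad3SA 1, 2 and 3 for Il1f9. Summed markers of myoepithelium, a list that shares Krt14 with the squamous one, were highest in Bad_WT 4 and Bad3SA 1, 2 and 3. Their sum was 1202, 1423, 1315, 673, 664 and 756 CPM in Bad3SA 1 to 6. In Bad_WT 1 to 6 it was 520, 968, 502, 1722, 1085 and 764 CPM. All 6 of these markers were tested, and 0 passed. The part of either cell type in the interleukin-36 values was not tested. The plot of selected genes by tumour sets the values side by side.

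**Figure D3:**
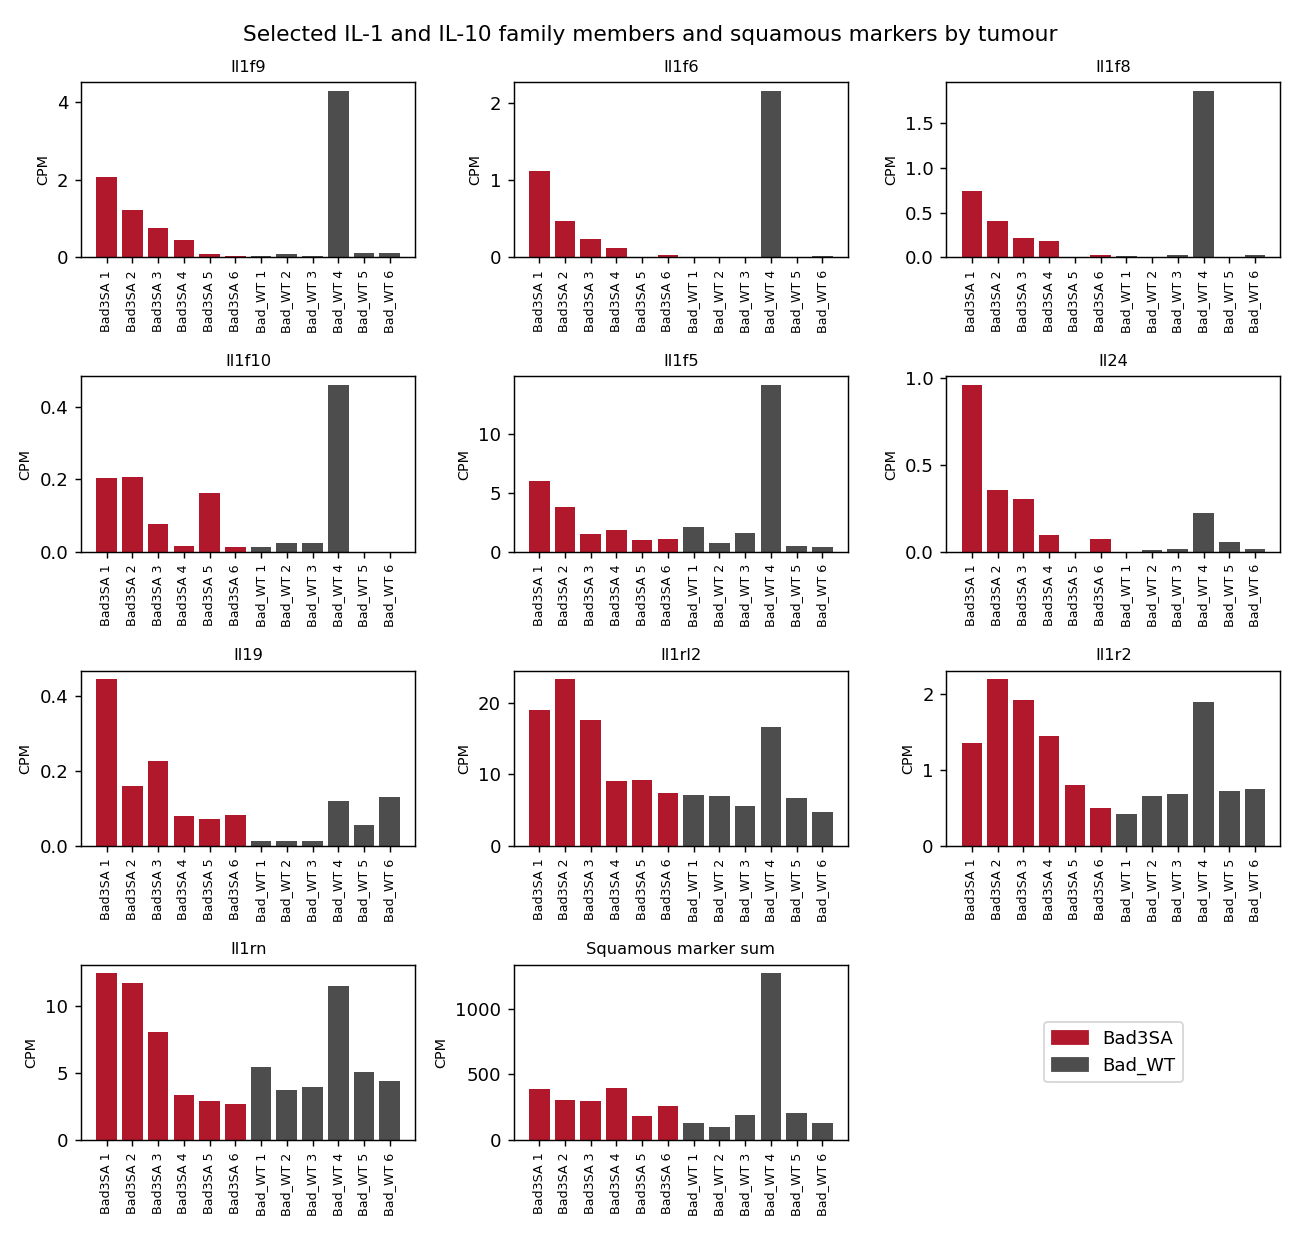
CPM per tumour (red, Bad3SA; grey, Bad_WT) of 10 genes of the interleukin-1 and interleukin-10 families, chosen after their values were seen, and of the summed squamous markers. Il1f9, Il1f6 and Il1f8 are highest in Bad_WT 4, at 4.29, 2.16 and 1.86 CPM, and next in Bad3SA 1.

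Il1b, a form of interleukin-1 that macrophages can make, was at 6.02, 7.84, 8.05, 7.27, 3.54 and 4.73 CPM in Bad3SA 1 to 6, against 5.38, 8.04, 7.64, 11.0, 8.43 and 8.27 CPM in Bad_WT 1 to 6. The groups overlapped, at -0.38 ± 0.23 (log2 estimate and SE; edgeR adjusted p = 0.418). Il1a was at 1.23 ± 0.384 CPM in Bad3SA and 0.960 ± 0.258 CPM in Bad_WT. Il18r1, a chain of the interleukin-18 receptor, was at 3.86 ± 1.68 CPM in Bad3SA and 6.44 ± 3.58 CPM in Bad_WT, where Bad_WT 6 was at 0.392 CPM and the others between 5.25 and 10.9. Il18bp, the soluble inhibitor of interleukin-18, was at 17.4 ± 3.63 CPM in Bad3SA and 14.7 ± 5.42 CPM in Bad_WT. Summed macrophage markers ran from 372 to 904 CPM in Bad3SA and from 324 to 915 CPM in Bad_WT, with Bad_WT 4 the highest and Bad_WT 6 the lowest of all. Il1b was also highest in Bad_WT 4, but was at 8.27 CPM in Bad_WT 6. It was lowest in Bad3SA 5, where the macrophage sum was 794 CPM. The part of these cells in the Il1b values was not tested.

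Il15 was the 1 tested gene whose groups did not overlap. It encodes a cytokine that sustains NK and memory CD8 T cells, and lies on GRCm38 chromosome 8 at 82331632 to 82403222. It was at 5.89, 4.89, 4.95, 4.86, 5.86 and 4.28 CPM in Bad3SA 1 to 6, against 4.17, 4.03, 3.44, 4.17, 3.21 and 2.30 CPM in Bad_WT 1 to 6. The lowest Bad3SA tumour, 6, stood just above Bad_WT 1 and 4. The log2 fold change was 0.53 (SE 0.19, edgeR adjusted p = 0.198), or 1.44-fold, and over all genes tested the groups did not overlap for 2.23%. It ran from 0.43 to 0.59 over 22 alternatives, of which none passed, with adjusted p of 0.0619 to 0.689. In the authors' deposited table its adjusted p was 0.0642. Of its receptor chains, Il15ra was at 19.4 ± 3.59 CPM in Bad3SA and 16.6 ± 4.01 CPM in Bad_WT (0.22, SE 0.18). Il2rb and Il2rg, the chains it shares with interleukin-2, had log2 fold changes of 0.13 (SE 0.32) and 0.20 (SE 0.30). Summed markers of NK cells were at 2.74 to 6.44 CPM in Bad3SA and 2.65 to 5.18 CPM in Bad_WT, and those of T cells at 17.1 to 29.4 CPM in Bad3SA and 14.7 to 19.4 CPM in Bad_WT. All 7 NK and all 10 T cell markers were found and tested, none averaged under 0.1 CPM and 0 passed. Of the T cell markers 9 had a positive and 1, Lck, a negative log2 fold change, with a median of 0.61. Cd3d (1.03, SE 0.40) and Cd4 (0.63, SE 0.28), 2 of the 10, had an unadjusted p under 0.05, which 16.2% of all genes tested also had. Lck was highest in Bad_WT 5 and 6, at 9.62 and 11.6 CPM, where Cd3e, a chain of the T cell receptor complex, was at 0.561 and 0.0980 CPM. The T cell sums of Bad_WT 5 and 6, at 19.4 and 15.3 CPM, were thus in large part Lck. Of the NK cell markers 5 had a positive and 2 a negative estimate, with a median of 0.36. The part of these cells in the Il15 values was not tested.

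Of the other genes of the common gamma chain group, 0 passed and the groups overlapped for each of those tested. Il2ra, the alpha chain that marks activated and regulatory T cells, was at 0.751 to 3.46 CPM in Bad3SA (median 1.92) and 0.408 to 7.92 CPM in Bad_WT (median 2.62), highest in Bad_WT 4. Its log2 fold change was -0.81 (SE 0.59, edgeR adjusted p = 0.498). Il7, a lymphocyte survival factor of stroma, was at 1.57 ± 0.507 CPM in Bad3SA and 2.10 ± 1.00 CPM in Bad_WT. Il4ra was at 42.9 to 84.4 CPM in Bad3SA and 38.2 to 85.0 CPM in Bad_WT, a log2 fold change of 0.01 (SE 0.22) whose sign turned in 10 of 22 alternatives. Il13ra1 was at 106, 92.0, 83.4, 57.0, 68.4 and 58.1 CPM in Bad3SA 1 to 6, against 77.8, 63.6, 94.8, 98.6, 97.5 and 106 CPM in Bad_WT 1 to 6. Its log2 fold change was -0.21 (SE 0.17, edgeR adjusted p = 0.543), and turned to 0.0306 (SE 0.20) with end-point age in the model.

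**Figure D4:**
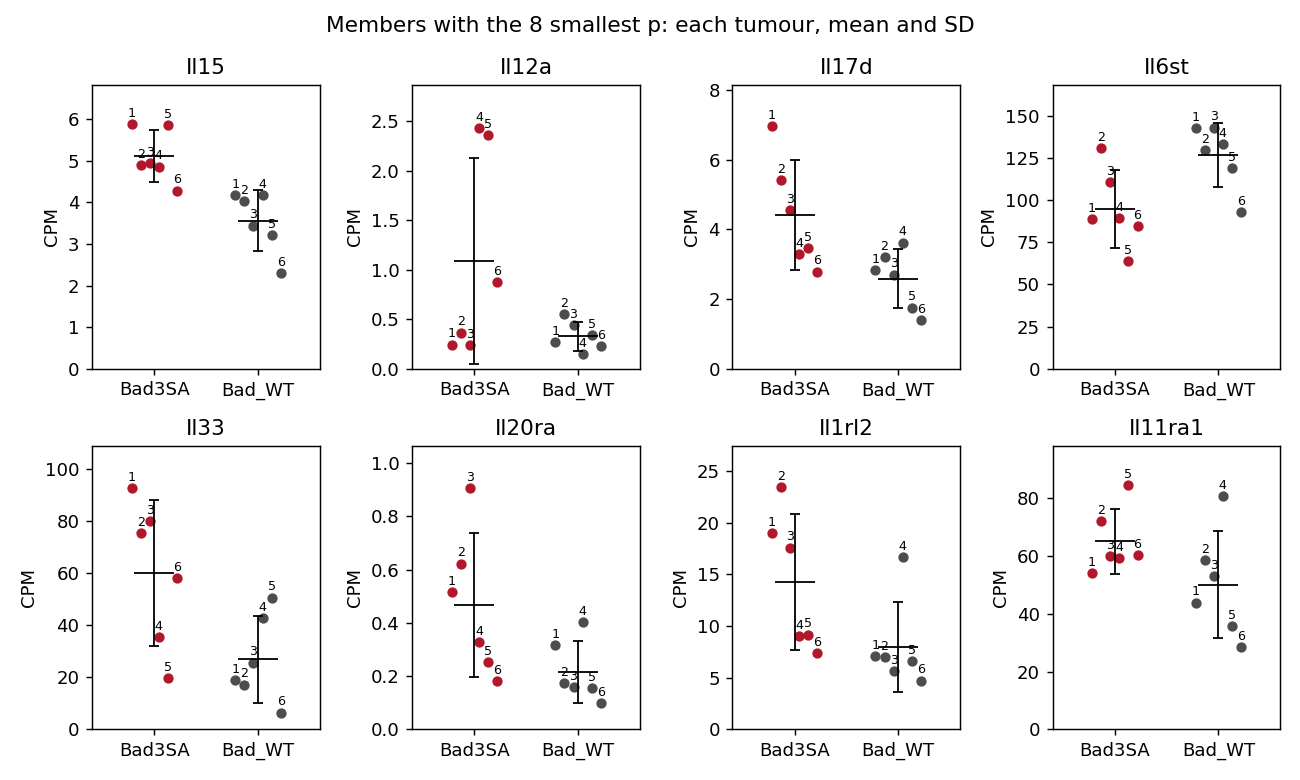
CPM of the 8 tested genes with the smallest p, each tumour as a numbered point (red, Bad3SA; grey, Bad_WT) with the group mean and SD in black. For Il15 the lowest Bad3SA tumour is at 4.28 CPM and the highest Bad_WT tumour at 4.17 CPM, and for the other 7 genes the groups overlap.

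In the interleukin-6 and interleukin-12 families, Il12a had the largest positive estimate of the 52 tested genes. It encodes p35, a subunit of both interleukin-12 and interleukin-35. It was at 0.244, 0.366, 0.242, 2.43, 2.36 and 0.876 CPM in Bad3SA 1 to 6, against 0.268, 0.554, 0.438, 0.149, 0.337 and 0.229 CPM in Bad_WT 1 to 6. Bad3SA 4, 5 and 6 lay above all Bad_WT tumours and Bad3SA 1, 2 and 3 within their range. The log2 fold change was 1.71 (SE 0.63, edgeR adjusted p = 0.214), 1.00 (SE 0.74) with end-point age in the model and 0.35 (SE 0.58) with limma voom. Il12b, which encodes the p40 subunit shared with interleukin-23, was at 0.187 ± 0.0822 CPM in Bad3SA and 0.272 ± 0.168 CPM in Bad_WT (-0.56, SE 0.51), with its highest value in Bad_WT 1. Il23a, the partner of p40 in interleukin-23, was at 0.690 to 1.61 CPM in Bad3SA (median 1.19) and 0.700 to 3.28 CPM in Bad_WT (median 1.80), at -0.61 ± 0.37 (log2 estimate and SE; edgeR adjusted p = 0.427). Il27 stood at 70 counts over the Bad3SA tumours and 44 over the Bad_WT tumours (0.82, SE 0.51, edgeR adjusted p = 0.434).

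Il6st, which encodes gp130, had the smallest p of the genes with a negative estimate. It was at 88.6, 131, 111, 89.2, 63.6 and 84.5 CPM in Bad3SA 1 to 6, against 142, 129, 143, 133, 119 and 92.7 CPM in Bad_WT 1 to 6. The groups overlapped through Bad3SA 2 and 3 and Bad_WT 6. Its log2 fold change was -0.42 (SE 0.16, edgeR adjusted p = 0.237). Il6ra, the chain that binds interleukin-6, was at 14.0 ± 3.62 CPM in Bad3SA and 14.5 ± 5.33 CPM in Bad_WT, and Il6 itself had 76 counts in Bad3SA and 122 in Bad_WT. Il11ra1, the interleukin-11 receptor, was at 54.1 to 84.3 CPM in Bad3SA (median 60.0) and 28.5 to 80.5 CPM in Bad_WT (median 48.3), an estimate of 0.38 ± 0.22 (log2 estimate and SE; edgeR adjusted p = 0.398), which was 0.03 (SE 0.21) with end-point age. Its transcript is 98.6% identical to Gm13305, and the chromosome 4 copy of Il11ra2 is 99.0% identical to Il11ra1, so reads could be divided among these genes. The 3 Il11ra2 genes had 3 counts in all.

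In the interleukin-10 family no ligand passed the filter. Il24 and Il19, both ligands of receptors on epithelium, were highest in Bad3SA 1, at 0.961 and 0.447 CPM. Il24 had 131 counts in Bad3SA and 22 in Bad_WT, and Il19 had 76 and 23. Fitted with no filter on low counts, their log2 fold changes were 2.48 (SE 1.08, edgeR adjusted p = 0.352) and 1.65 (SE 0.68, edgeR adjusted p = 0.330). Il20ra, a receptor chain for these ligands, was at 0.514, 0.622, 0.906, 0.329, 0.254 and 0.181 CPM in Bad3SA 1 to 6, against 0.317, 0.173, 0.158, 0.402, 0.154 and 0.0980 CPM in Bad_WT 1 to 6. Bad3SA 1, 2 and 3 lay above all Bad_WT tumours (log2 fold change 1.10, SE 0.45, edgeR adjusted p = 0.255). Il20rb, the partner chain, spread most of the 6 genes with the highest levels. It was at 35.8, 39.2, 33.9, 90.8, 74.2 and 46.0 CPM in Bad3SA 1 to 6, against 174, 34.4, 21.4, 25.8, 66.9 and 159 CPM in Bad_WT 1 to 6. Bad_WT 1 and 6 stood above every other tumour, and the log2 fold change was -0.59 (SE 0.51, edgeR adjusted p = 0.569).

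The interleukin-17 family acts on epithelium to induce antimicrobial and neutrophil-recruiting genes. Il17d was at 2.78 to 6.96 CPM in Bad3SA (median 4) and 1.40 to 3.62 CPM in Bad_WT (median 2.76). Bad3SA 1, 2 and 3 lay above all Bad_WT tumours, and the log2 fold change was 0.77 (SE 0.29, edgeR adjusted p = 0.227). Il17re was at 87.3 to 165 CPM in Bad3SA (median 109) and 89.5 to 126 CPM in Bad_WT (median 95.2), an estimate of 0.22 ± 0.16 (log2 estimate and SE; edgeR adjusted p = 0.501). Il17ra, the shared chain of the family, spread least of the tested genes, from 18.8 to 23.6 CPM in Bad3SA and 20.1 to 24.1 CPM in Bad_WT. All 5 receptor genes of the family were tested, with a median log2 fold change of -0.0188. Summed neutrophil markers were at 11.3 to 21.9 CPM in Bad3SA and 5.76 to 78.5 CPM in Bad_WT, highest in Bad_WT 4.

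Many of the genes lie next to each other. With gaps of at most 500 kb, 37 of the 84 fall in 13 clusters on GRCm38. On chromosome 1 (40074079 to 40551705) stand Il1r2, Il1r1, Il1rl2, Il1rl1, Il18r1 and Il18rap, with log2 fold changes of 0.69, 0.24, 0.84, 0.57, -0.74 and 0.39 in that order. Neighbours in this run thus had estimates of both signs. On chromosome 2 (24153161 to 24351494) the interleukin-36 genes Il1f8, Il1f9 and Il1f6 stand beside Il1f5, Il1f10 and Il1rn, all of them highest in Bad_WT 4 among Bad_WT tumours.

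The signalling genes around these receptors were examined from lists. Of 23 receptor partners and related cytokines without an Il name 21 were tested, of 17 genes of interleukin-1 and interleukin-17 signalling and cytokine processing all 17 were, and of 18 genes of JAK-STAT signalling all 18 were. None passed in either direction. Their median log2 fold changes were 0.16, 0.0111 and 0.09, and an unadjusted p under 0.05 was reached by 3, 5 and 3 of them, where 16.2% of all genes tested reached it. Ctf1, a ligand of gp130 receptors, was at 14.0 ± 0.684 CPM in Bad3SA and 17.4 ± 1.69 CPM in Bad_WT (-0.31, SE 0.10, edgeR adjusted p = 0.182). Its groups did not overlap, as for 2.23% of all genes tested. Traf6, the ubiquitin ligase of interleukin-1 and interleukin-17 receptor signalling, was at 38.7 ± 8.26 CPM in Bad3SA and 52.6 ± 5.59 CPM in Bad_WT (-0.44, SE 0.14, edgeR adjusted p = 0.164). Ctf1 and Traf6 had the smallest adjusted p of their lists, and the smallest edgeR adjusted p of the JAK-STAT list was 0.110.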

How the data were processed

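RNA of 12 breast tumours was sequenced. The deposited table of the authors gives whole-number read counts for Ensembl genes. The tools named in the submitters' processing notes are STAR 2.7.9a, fastp 0.23.1 and DESeq2, with the GRCm38 build. The sources used here do not give how reads were counted, with which annotation and with what strand setting. Reads of overlapping and antisense genes could therefore not be told apart. Among tested genes, Serbp1 covers 40.0% of the exon bases of Il12rb2 on the opposite strand and Gm20489 covers 30.5% of those of Il2rg. The authors' own comparison, per the file headers, lists p-values per gene beside the mean normalised signal, the log2 fold change with its error and the Wald score. It runs as Bad_WT over Bad3SA, the opposite of the sign used here. Only its fold changes and p-values were used.

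Genes were filtered with filterByExpr (edgeR 4.0.16 with R 4.3.3), scaled with TMM and tested for genotype with the robust quasi-likelihood test over 18019 genes. The threshold was an adjusted p of 0.05. The fit was checked on simulated counts in which the spread of the most variable genes was capped, so the check does not cover such genes. CPM use TMM-scaled library sizes. Log2 fold changes are Bad3SA over Bad_WT. The SE is the log2 fold change over the square root of F. Exon lengths and positions are from GENCODE vM21 (GRCm38), copies from BLAST+ 2.17.0. Alternatives used DESeq2 1.42.0 and limma 3.58.1.

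Genes, lists and tests were chosen with earlier results of these data known. Genes were named if they passed, were among the 12 smallest p or the 6 highest levels, or did not overlap between groups. Others are named as the highest or lowest of a family or as ligand or receptor of a named gene, after their values were seen. The numbers in the sample titles did not pair tumours: correlations of same-numbered tumours' deviations from their group means ran from -0.271 to 0.283.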

Additional observations from a re-analysis of the deposited data

Results flagged for a closer look

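The 16 named genes were each examined within the 6 Bad3SA and the 6 Bad_WT tumours. In 2 of 32 sets a tumour's gap to its nearest neighbour was over the critical share of the range in Dixon's test. Chance marks about 1 set in 20 where values are normally distributed and sets are independent. These genes were named from the same data, in part by smallest p, so this rate need not hold for them. In both flagged sets the tumour was Bad_WT 4. Its Il1rl2 level was 16.7 CPM, and the next Bad_WT tumour had 7.11 CPM. Its Il1r2 level was 1.89 CPM, and the next Bad_WT tumour had 0.751 CPM.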

How the results depend on the processing

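In 21 of 22 alternatives 0 interleukin or receptor genes passed. With limma voom with quality weights 1 of 52 did, Il33 (log2 1.48), where 579 of 18019 genes did. The number of interleukin or receptor genes passing was 0 without Bad_WT 4 and Bad_WT 6 together, a choice made after seeing the data. It was also 0 in each of the 12 fits that left out 1 tumour. Over all genes, 249 calls became 998 with the DESeq2 Wald test, 579 with limma voom, 163 with at least 1 CPM in 6 tumours, 73 with end-point age and 105 with the title number as a replicate block. The cause was not tested. The block is given though the numbers did not pair tumours, and 1 of 6 Bad3SA tumours correlated best with its own number. With 1 tumour left out the calls ran from 147 to 315, and were 151 without Bad3SA 3, 148 without Bad3SA 4, 158 without Bad_WT 1, 161 without Bad_WT 3 and 147 without Bad_WT 5. Of 348 refits of named genes 11 turned sign. Il4ra was at -0.0232 with no filter, -0.00160 with the DESeq2 Wald test, -0.0341 with end-point age, and from -0.13 to 0.13 with 1 tumour left out. Il13ra1 was at 0.0306 with end-point age. The low counts of most ligands limit what could be tested.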
